A study of Homo sapiens with 6 samples.

Results

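Connexins and pannexins are the channel proteins described here, through the transcripts of GJA1, GJB2, GJB5, GJC1, PANX1 and PANX2 in PC3 prostate cancer cells. These 6 genes were listed by symbol, and each was looked up by its Entrez identifier among the 12703 genes of the count table. GJB5 had no row and is not analysed here, so 5 of the 6 genes were measured. A search of the table for connexin and pannexin symbols also gave GJA3 and GJA5, which are described after them.

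PC3 cells are an established human line of prostate cancer that came from a bone metastasis. RNA was sequenced from 3 PC3 lines carrying a Lenti-ORF negative control and from 3 PC3 lines with stable GCNT1 overexpression, all made by lentiviral transduction. GCNT1 is a Golgi enzyme that adds the branching sugar to O-glycans of the mucin type, and the comparison asks which transcripts differ when more of it is made. Both groups carry lentiviral sequence, the 3 lines of a group share their parent line, and a stable line is a selected culture rather than an acute response. In bulk RNA, fewer cells that make a transcript and less of that transcript per cell cannot be told apart.

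Control libraries 1 to 3 held 12755888, 12717300 and 12125672 counts. GCNT1 overexpression libraries 1 to 3 held 11392213, 13411484 and 13825704 counts. Values are given as counts or as CPM, the usual scaling of counts to library size, here with TMM factors. At this depth 3 counts correspond to between 0.217 and 0.263 CPM by library size alone, before TMM factors. This floor covers counting error only. A gene was called when its adjusted p was under 0.05 and its absolute log2 fold change was 0.58 or more, the thresholds of the study, and log2 fold changes are GCNT1 overexpression over control.

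The overexpressed gene itself had few counts. GCNT1 had 9, 13 and 8 counts in the control libraries and 13, 16 and 35 counts with overexpression. Every overexpression library was above every control library in CPM, and library 3 was far above the others. The separation was narrow: control library 2 and overexpression library 1 both had 13 counts, at 1.04 and 1.12 CPM. The means were 0.812 ± 0.202 CPM in control and 1.59 ± 0.772 CPM with overexpression (SD, n = 3 each), with a log2 fold change of 0.98 (SE 0.37, adjusted p = 0.0362, edgeR's quasi-likelihood F test, Benjamini-Hochberg adjustment). The call was lost without overexpression library 3 (0.49), without control library 1 (0.91) or without control library 3 (0.88). GCNT1 overlaps PRUNE2 on the opposite strand, and whether the lentiviral reading frame was counted under GCNT1 was not tested. The study checked GCNT1 overexpression in PC3 cells separately, by real-time PCR, ELISA and immunocytochemistry.

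Markers set the cell type against its label. All 4 epithelial markers had a row (KRT8, KRT18, KRT19 and EPCAM), and their summed level was 818, 863 and 866 CPM in the control libraries and 709, 625 and 647 CPM with overexpression. KRT19 had the highest CPM of them in the control libraries and fell by 0.68 on the log2 scale. It was the only epithelial marker called: KRT8 was at -0.14, KRT18 at -0.18 and EPCAM at 0.09, so most of the difference in the sum came from KRT19. Of the androgen-responsive luminal markers, KLK3 and KLK2 had no row, and PC3 is known to grow without androgen. TMPRSS2 was called lower, with 4.85, 3.94 and 3.81 CPM in control and 1.64, 1.97 and 1.63 CPM with overexpression. None of the 3 fibroblast markers (DCN, LUM and PDGFRA) and none of the 3 leukocyte markers (PTPRC, CD3E and CD14) had a row. Of the endothelial markers, VWF and CDH5 had no row, while PECAM1 was called higher, with 1.43, 1.93 and 1.95 CPM in control and 5.10, 3.93 and 4.25 CPM with overexpression. The part of these marker differences in the results on channels was not tested.

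Connexins join into hemichannels in the plasma membrane, and hemichannels of touching cells dock to form gap junctions that let ions and small metabolites pass between the cells. Pannexins form large-pore channels that open to the outside of the cell and release ATP, and they are not known for docking across cells as connexins do. In prostate epithelium gap junctions couple neighbouring cells, and loss or misplacement of connexins from cell contacts has long been described in prostate cancer lines.

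Transcripts of a connexin and of a pannexin were most clearly lower with GCNT1 overexpression. GJA1 was at 30.9% of its control level and PANX1 at 53.2%, while GJB2 was also called lower from far fewer counts. GJC1 and PANX2, the other connexin and the other pannexin among the 5 genes, were not called. Thus 3 of the 5 genes were called, all 3 lower, where 19.3% of all 12703 genes were called and 11.1% were called lower. An adjusted p under 0.05 at any fold change was reached by 4 of the 5, against 57.6% of all genes. The groups did not overlap for 4 of the 5, against 62.5% of all genes. The log2 fold change of each of the 5 genes was negative with TMM scaling, with RLE scaling and with library size alone.

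**Figure D1:**
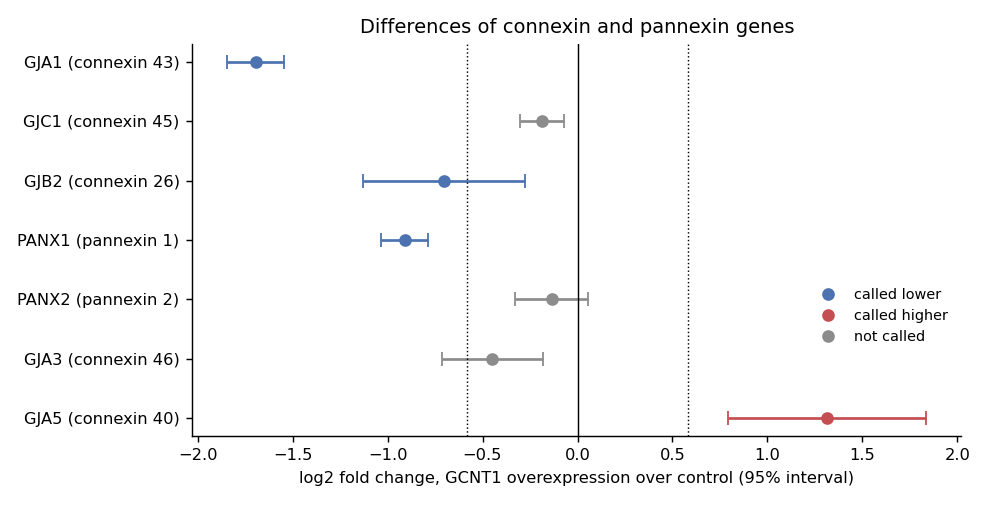
Log2 fold changes of connexin and pannexin genes, GCNT1 overexpression over control, with 95% intervals from the fit over 3 libraries a group; the dotted lines are the fold thresholds for a call. GJA1 lies at -1.69 and PANX1 at -0.91 with narrow intervals, GJB2 at -0.70 with a wide interval, and GJA5 at 1.32 is the gene called higher.

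GJA1 encodes Cx43, the most widely expressed connexin of human tissues. Its counts were 1271, 1187 and 1137 in control libraries 1 to 3, which is 101, 95.3 and 96.2 CPM. With GCNT1 overexpression they were 315, 414 and 462, which is 27.2, 30.1 and 32.7 CPM. All overexpression libraries were far below all control libraries, and the distance between the groups was much larger than the spread within either. The means were 97.5 ± 3.06 CPM in control and 30.03 ± 2.76 CPM with overexpression (SD, n = 3 each), so that control was 3.24-fold higher. The log2 fold change was -1.69 (SE 0.07, 95% interval -1.84 to -1.54), with an adjusted p of 4.02e-10 after Benjamini-Hochberg adjustment of edgeR's quasi-likelihood F test. An exact two-sided permutation test of 3 against 3 libraries cannot give a p below 0.1, and GJA1 reached that value, as did GJB2, GJC1, PANX1, GJA3 and GJA5.

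GJA1 lies at chr6:121435595-121449727 on the forward strand of hg38, with 2 exons in its reference transcript, and overlaps no other gene of GENCODE 44. A processed pseudogene, GJA1P1, at chr5:109049582-109052656, matches its transcript at 96.1% identity over 3092 aligned bases. Of the 3009 windows of 75 bases in the transcript, the length of the reads, 291 (9.67%) occur unchanged in the pseudogene. Reads from these windows cannot be placed by sequence alone, so the GJA1 count is uncertain to that extent. GJA1P1 itself was not analysed here.

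GJC1 encodes Cx45, a connexin known best from the conduction tissue of the heart and from vessels. It had 1492, 1431 and 1341 counts in the control libraries (119, 115 and 113 CPM) and 1123, 1452 and 1434 counts with overexpression (97.0, 106 and 102 CPM). The control libraries were all above the overexpression libraries, but only by a narrow margin. The means were 116 ± 2.64 CPM and 101 ± 4.34 CPM (SD, n = 3 each). The log2 fold change was -0.19 (SE 0.05, 95% interval -0.30 to -0.07; adjusted p = 0.00833, edgeR's quasi-likelihood F test, Benjamini-Hochberg adjustment), and GJC1 missed the fold threshold. With library size alone as scaling, the adjusted p of the same edgeR quasi-likelihood test with Benjamini-Hochberg adjustment was 0.0546, in a range from 0.00766 to 1 over the alternatives. GJC1 lies at chr17:44798448-44830816 on the reverse strand and overlaps no other annotated gene.

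GJA1 and GJC1 can be set against each other within a library, where depth cancels. The ratio of GJA1 counts to GJC1 counts was 0.852, 0.829 and 0.848 in the control libraries and 0.280, 0.285 and 0.322 with overexpression. The ratio was nearly the same in the lines of a group and lower in every overexpression library. As a ratio of counts it is not corrected for transcript length, so only its difference between libraries can be read.

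GJB2 encodes Cx26, a connexin of epithelia that is best known from the inner ear. It had 64, 46 and 44 counts in the control libraries (5.09, 3.69 and 3.72 CPM) and 34, 29 and 38 counts with overexpression (2.94, 2.11 and 2.69 CPM). The groups did not overlap, though control library 1 stood above the other control libraries. The means were 4.17 ± 0.795 CPM and 2.58 ± 0.425 CPM (SD, n = 3 each). Its log2 fold change was -0.70 (SE 0.20, 95% interval -1.13 to -0.27; adjusted p = 0.00823, edgeR's quasi-likelihood F test, Benjamini-Hochberg adjustment). This interval reaches inside the fold threshold. The call was lost without control library 1 (-0.52) and without overexpression library 2 (-0.57), and when the test was made against the fold threshold itself. GJB2 lies at chr13:20187463-20192938 on the reverse strand and overlaps no other annotated gene.

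PANX1 encodes pannexin 1, the main ATP release channel of its family. It had 1183, 1140 and 1045 counts in the control libraries, which is 94.0, 91.6 and 88.4 CPM. It had 537, 687 and 694 counts with overexpression, which is 46.4, 50.01 and 49.2 CPM. All overexpression libraries were well below all control libraries, with little spread inside a group. The means were 91.3 ± 2.81 CPM and 48.5 ± 1.89 CPM (SD, n = 3 each), so that control was 1.88-fold higher. For PANX1 the log2 fold change was -0.91 (SE 0.06, 95% interval -1.03 to -0.79; adjusted p = 2.62e-08, edgeR's quasi-likelihood F test, Benjamini-Hochberg adjustment). PANX1 lies at chr11:94128841-94181968 on the forward strand, has 5 exons in its reference transcript and overlaps no other annotated gene.

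PANX2 encodes pannexin 2, a longer pannexin known mainly from the nervous system. It had 225, 253 and 242 counts in the control libraries (17.9, 20.3 and 20.5 CPM) and 218, 228 and 254 counts with overexpression (18.8, 16.6 and 18.0 CPM). The groups overlapped, since overexpression library 1 was above control library 1. The means were 19.6 ± 1.45 CPM and 17.8 ± 1.13 CPM (SD, n = 3 each). The log2 fold change was -0.14 (SE 0.09, 95% interval -0.33 to 0.06; adjusted p = 0.205, edgeR's quasi-likelihood F test, Benjamini-Hochberg adjustment), and the exact two-sided permutation p was 0.3. A difference of the size seen for PANX1 lies outside this interval. PANX2 lies at chr22:50170731-50180295 on the forward strand and overlaps no other annotated gene.

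Within each library the ratio of PANX1 counts to PANX2 counts was 5.26, 4.51 and 4.32 in control and 2.46, 3.01 and 2.73 with overexpression. Every overexpression library had the lower ratio, as for GJA1 over GJC1. In both pairs a gene called lower is set over an uncalled relative, so these ratios largely restate the fold changes given above.

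**Figure D2:**
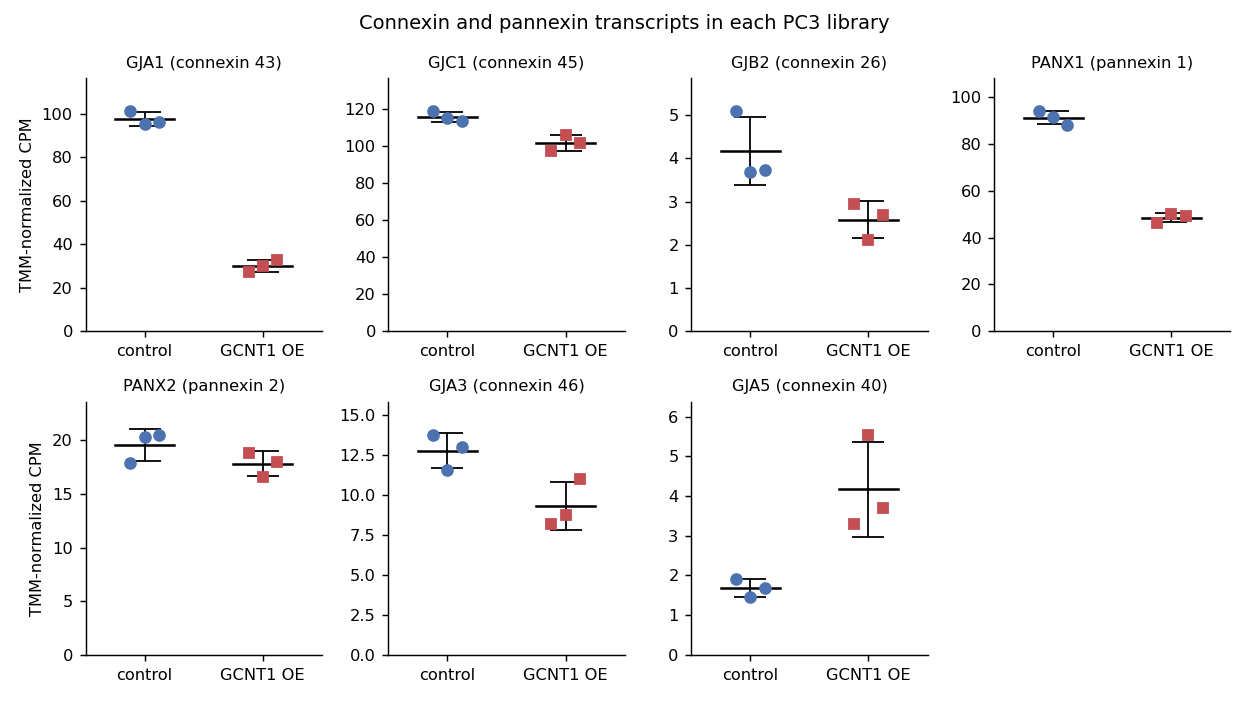
TMM-scaled CPM of connexin and pannexin genes in each library, with control libraries as circles, GCNT1 overexpression libraries as squares, long bars at the mean and whiskers of 1 SD (n = 3 each). GJA1 and PANX1 show wide gaps between groups, PANX2 overlaps, and GJA5 is the gene with all overexpression libraries above control.

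GJA3 and GJA5, connexin genes outside the list, differed in direction. GJA3, the Cx46 gene known from the lens, had 173, 144 and 154 counts in control and 95, 120 and 155 counts with overexpression. In CPM these are 13.7, 11.6 and 13.03 against 8.21, 8.74 and 10.99. The groups did not overlap, and overexpression library 3 lay close to the lowest control library. Its log2 fold change was -0.45 (SE 0.12; adjusted p = 0.00714, edgeR's quasi-likelihood F test, Benjamini-Hochberg adjustment), short of the fold threshold. Without overexpression library 3 it was -0.59 and the gene was called.

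GJA5, the Cx40 gene known from atria and arteries, had 24, 18 and 20 counts in control and 38, 76 and 52 counts with overexpression. In CPM these are 1.91, 1.45 and 1.69 against 3.28, 5.53 and 3.69. Every overexpression library was above every control library, and library 2 was the highest. GJA5 was called higher, with a log2 fold change of 1.32 (SE 0.24, 95% interval 0.79 to 1.84; adjusted p = 0.000425, edgeR's quasi-likelihood F test, Benjamini-Hochberg adjustment), where 8.28% of all genes were called higher. A long noncoding RNA gene lies over GJA5 on the opposite strand, and the sources used here do not say whether strand was used in counting, so reads from the stretch they share cannot be told apart. Its transcripts match 481 of the 3177 bases of the GJA5 reference transcript (15.1%).

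Levels of different genes were compared only per length, as CPM per kb of the union of annotated exons. In the control lines the order of mean levels was PANX1 with 32.0 CPM per kb, GJA1 with 28.7, GJC1 with 13.3, PANX2 with 6.30, GJA3 with 2.45, GJB2 with 1.68 and GJA5 with 0.511. No neighbours in this order overlapped between libraries on this length. When the reference transcript alone set the length, PANX1 and GJA1 had means of 32.0 and 31.6 CPM per kb and their libraries overlapped, with GJA1 above PANX1 in control library 3, so their order is not resolved. PANX1 and GJA1 thus stood at the top of these genes in control, with GJC1 well under them on the same scale.

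With GCNT1 overexpression the order was PANX1 with 17.0 CPM per kb, GJC1 with 11.6, GJA1 with 8.85, PANX2 with 5.74, GJA3 with 1.79, GJA5 with 1.27 and GJB2 with 1.04. GJC1 stood above GJA1 in every overexpression library, between 11.1 and 12.1 CPM per kb against 8.02 to 9.65. GJA3 overlapped with GJA5, and GJA5 overlapped with GJB2, so their order is not resolved. With the reference transcript as the length, GJC1 again stood above GJA1, with 13.2 against 9.74 CPM per kb.

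The 250 bases before the RefSeq start site (GRCh38.p14) are shown for the 3 members called lower, because these genes differed in the same direction. The windows are chr6:121435396-121435645 on the forward strand for GJA1, chr11:94128591-94128840 on the forward strand for PANX1 and chr13:20192939-20193188 on the reverse strand for GJB2. All are written 5′ to 3′ along the gene, and the capitals mark matches on either strand to the motifs searched: TGANTCA, the AP-1 motif, and GGGCGG, the GC box. GENCODE 44 starts GJA1 further upstream, inside the window shown.
GJA1: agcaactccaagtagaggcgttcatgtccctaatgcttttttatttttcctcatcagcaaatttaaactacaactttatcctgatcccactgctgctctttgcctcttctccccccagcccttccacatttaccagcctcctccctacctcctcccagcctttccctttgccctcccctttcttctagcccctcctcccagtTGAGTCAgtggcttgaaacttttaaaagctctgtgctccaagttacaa
PANX1: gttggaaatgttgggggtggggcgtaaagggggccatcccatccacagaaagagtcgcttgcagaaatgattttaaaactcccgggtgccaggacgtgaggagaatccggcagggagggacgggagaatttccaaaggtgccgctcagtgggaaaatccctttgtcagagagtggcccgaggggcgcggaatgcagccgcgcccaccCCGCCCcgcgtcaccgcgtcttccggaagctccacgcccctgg
GJB2: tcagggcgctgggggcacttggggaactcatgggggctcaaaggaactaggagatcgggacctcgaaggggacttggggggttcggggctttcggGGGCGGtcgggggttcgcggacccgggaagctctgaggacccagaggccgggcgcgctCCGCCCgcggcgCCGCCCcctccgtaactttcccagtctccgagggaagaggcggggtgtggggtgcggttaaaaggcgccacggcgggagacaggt

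The GJA1 window held a single AP-1 match, which began 48 bases before the start, and no GC box. By the GENCODE start, this match lies just inside the gene and not before it. The PANX1 window held a single GC box, which began 43 bases before the start, and no AP-1 match. The GJB2 window held 3 GC boxes, which began 155, 97 and 85 bases before the start, and no AP-1 match. None of these 3 windows held the TATA box letters TATAAA on either strand. Among the windows of equal length of 10236 tested genes, 3.78% held TGANTCA, 67.9% held GGGCGG and 5.31% held TATAAA. The share of G and C was 48.0% for GJA1, 62.0% for PANX1 and 70.0% for GJB2, beside a median of 65.2% over all windows. The motifs were chosen after the sequences were seen, and a match describes letters only.

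Profiles over the 6 libraries were compared with those of all genes by the root mean square difference of log2 CPM, each profile centred on its own mean. The closest to GJA1 were WNT5A, a secreted Wnt ligand, with a difference of 0.0556, then SEPTIN3, a septin GTPase, with 0.0701, and SLCO5A1, of a family of organic anion transporters, with 0.0782. WNT5A fell from a mean of 61.4 ± 2.43 CPM to 18.1 ± 0.975 CPM (SD, n = 3 each), or -1.76 as log2 fold change. The closest to PANX1 were PXDN, a peroxidase of the basement membrane, with 0.0282, then ATG10, an enzyme of autophagy, with 0.0357, and SPDL1, a kinetochore protein, with 0.0368. PXDN fell from a mean of 406 ± 9.76 CPM to 222 ± 9.36 CPM (SD, n = 3 each), or -0.87 as log2 fold change.

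For GJB2 the closest profiles were those of RN7SL1, the RNA of the signal recognition particle, with 0.0828, PRR7 with 0.108 and IGIP with 0.108. GJB2's distances were the widest of the 5 members, and its counts were the lowest. For GJC1 they were ATP2C1, a calcium pump of the Golgi, with 0.0108, SRSF10, a splicing factor, with 0.0145, and FAM111A with 0.0175. For PANX2 they were TMBIM1 with 0.0196 and FBXL19 with 0.0207. All of the genes named for GJA1, PANX1 and GJB2 were called lower, and none of those named for GJC1 and PANX2 was called, as the choice by likeness fixes.

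The members lie on different chromosomes, and their tested neighbours were read in order along each. GJA1 stood well under the genes around it. The tested genes beside it were TBC1D32 at -0.50 and HSF2 at -0.27, neither called, and the median log2 fold change of its 50 nearest tested genes was -0.29 beside 0.00 over all genes. Of these 50 genes, 7 were called lower and 3 higher, beside 11.1% and 8.28% of all genes, and 3 had a lower log2 fold change than GJA1.

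PANX1 had a neighbour that was lower still. HEPHL1, which encodes a membrane copper oxidase, fell from a mean of 6.02 ± 0.636 CPM to 0.657 ± 0.0637 CPM (SD, n = 3 each), or -3.17 as log2 fold change. On the other side MRE11, a DNA repair nuclease, was at -0.41 and was not called. The median over the 50 nearest tested genes was -0.20, with 9 called lower and 2 higher where 19.3% of all genes were called, and 5 of them had a lower log2 fold change than PANX1. After HEPHL1, the called genes closest to PANX1 were VSTM5 at -1.63, CEP295 at -0.76 and SMCO4 at -0.95, all on the HEPHL1 side. TAF1D, which lies among them, was at 0.03 and was not called. The 2 called higher, HIKESHI at 0.62 and BIRC3 at 1.08, lay further away.

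GJB2 lies beside GJA3 on chromosome 13, and this neighbouring pair of connexins had log2 fold changes of -0.70 and -0.45. On the other side of GJB2, CRYL1 was at 0.27 and was not called, and the median of the 50 nearest tested genes of GJB2 was 0.12, with 4 called lower and 4 higher where 19.3% of all genes were called. GJC1 lies between ADAM11 at 0.39 and EFTUD2 at 0.16, with a median of 0.12 around it. PANX2 lies between PIM3 at 0.00 and TRABD at -0.16, with a median of -0.20 around it. None of the flanking genes GJA3, CRYL1, ADAM11, EFTUD2, PIM3 and TRABD was called. The part of chromosomal position in the differences of the members was not tested.

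**Figure D3:**
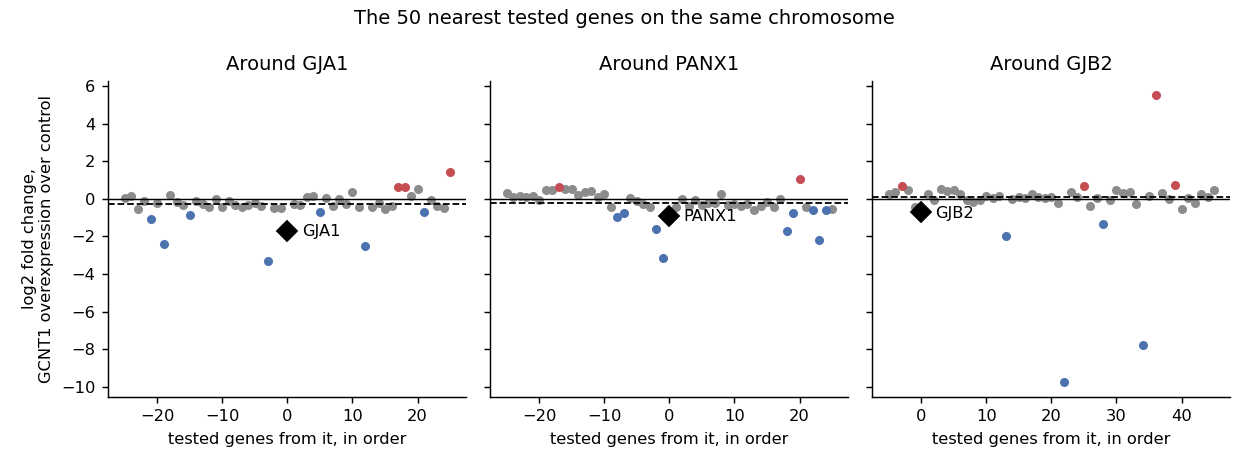
Log2 fold changes, GCNT1 overexpression over control, of the 50 nearest tested genes on the same chromosome around GJA1, PANX1 and GJB2, in order along the chromosome (grey, not called; blue, called lower; red, called higher; dashed line, median of the 50 genes). GJA1 and GJB2 lie below most of the genes beside them, and the gene next to PANX1 lies at -3.17.

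Genes that act with connexins were next set beside the members. The list held 34 genes for scaffolds, trafficking, ubiquitin and sorting, endocytosis and kinases, all with a row. Of these, 3 were called, all lower, which is 8.82% against 19.3% of all genes. CCN3, a secreted protein that binds the tail of Cx43, fell from a mean of 50.9 ± 1.59 CPM to 18.7 ± 1.95 CPM, with -1.44 as its log2 fold change. DAB2, a clathrin adaptor that takes part in the uptake of gap junctions, fell from a mean of 84.1 ± 4.43 CPM to 49.5 ± 3.35 CPM, with -0.76 as its log2 fold change. PRKCE, a protein kinase C that phosphorylates Cx43, fell from a mean of 13.1 ± 1.30 CPM to 8.32 ± 0.866 CPM, with -0.65 as its log2 fold change (SD, n = 3 each).

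For CCN3, DAB2 and PRKCE the groups did not overlap. An adjusted p under 0.05 at any fold change was reached by 24 of the 34 genes, 19 of them lower and 5 higher, where 57.6% of all genes reached it. The median log2 fold change of the list was -0.18, beside 0.00 over all genes. The uncalled genes with the highest CPM were CLTC, the clathrin heavy chain, with 1126 ± 35.3 CPM in control and 1259 ± 56.9 CPM with overexpression, and AP2M1, a clathrin adaptor subunit, with 540 ± 19.7 and 682 ± 26.5 CPM. The count of 3 became 5 without control library 1.

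Pannexin channels release ATP, and the next list held 18 genes for the receptors that sense it and for the enzymes that act on pannexin 1. Of these, 9 had a row and 3 were called, 2 higher and 1 lower, which is 33.3% of the 9 beside 19.3% of all genes. P2RY2, a receptor for ATP and UTP, rose from a mean of 33.8 ± 0.343 CPM to 83.5 ± 1.94 CPM, with 1.30 as its log2 fold change. P2RX5, an ATP-gated channel, rose from a mean of 0.947 ± 0.144 CPM to 2.18 ± 0.0803 CPM, with 1.19 as its log2 fold change. P2RY1, a receptor for ADP, fell from a mean of 14.2 ± 1.23 CPM to 8.90 ± 1.48 CPM, with -0.67 as its log2 fold change (SD, n = 3 each).

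For all 3 of these receptors the groups did not overlap, and they differed in direction. The list's median log2 fold change was 0.19 beside 0.00 over all genes. The uncalled gene with the highest CPM was ROCK1, a kinase that drives membrane blebbing in dying cells, with 121 ± 13.7 CPM in control and 130 ± 13.2 CPM with overexpression (SD, n = 3 each).

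Released ATP is broken down outside the cell to adenosine, which is then taken up. Of 18 genes listed for these steps, 7 had a row and 1 was called, which is 14.3% of the 7 beside 19.3% of all genes. NT5E, the surface enzyme that turns AMP into adenosine, fell from a mean of 199 ± 6.49 CPM to 100.4 ± 3.40 CPM, with -0.99 as its log2 fold change, and its groups did not overlap (SD, n = 3 each). The list's median was -0.32 beside 0.00 over all genes. The uncalled genes with the highest CPM were ADK, which phosphorylates adenosine, with 185 ± 5.11 and 227 ± 6.21 CPM, and SLC29A1, a nucleoside transporter, with 141 ± 9.24 and 169.5 ± 9.97 CPM.

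Other large-pore channels were taken from a list of 11 LRRC8 and CALHM genes, of which the 5 LRRC8 genes had a row. None was called by edgeR, limma-voom or DESeq2, and 2 of the 5 had an unadjusted p under 0.05 in edgeR's quasi-likelihood test. Of all genes 19.3% were called, and 57.6% had an adjusted p under 0.05, as did 2 of these 5. The median log2 fold change was 0.11 beside 0.00 over all genes. LRRC8A, the subunit that volume-regulated anion channels cannot do without, had 126 ± 7.12 CPM in control and 146 ± 4.17 CPM with overexpression. LRRC8E, a partner subunit, had 53.9 ± 2.79 and 57.4 ± 4.20 CPM (SD, n = 3 each).

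**Figure D4:**
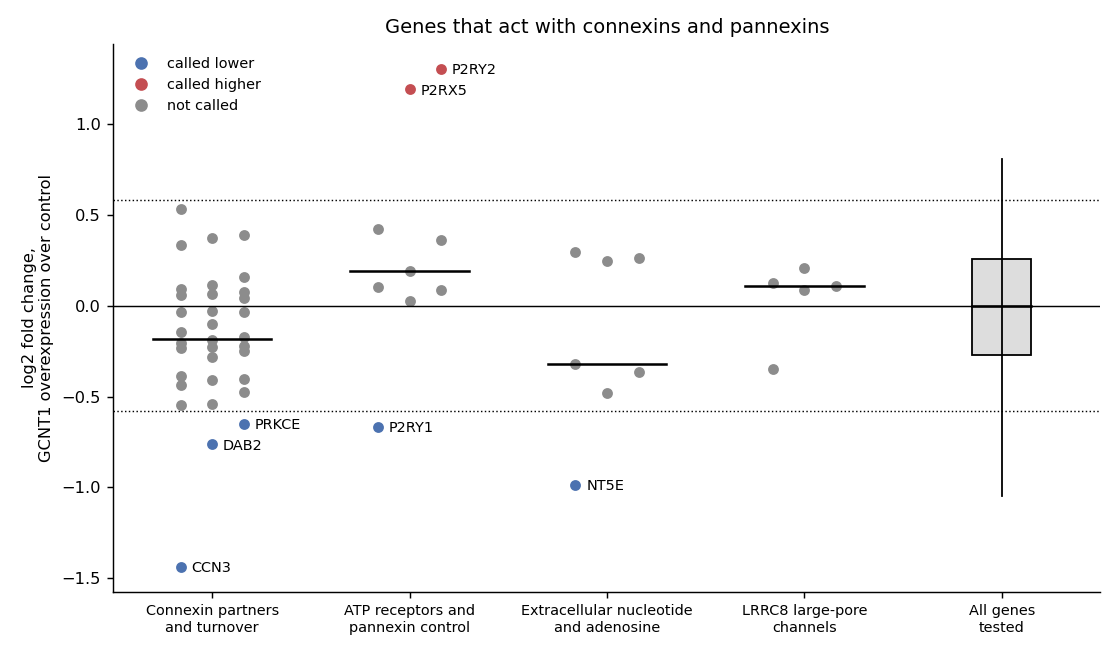
Log2 fold changes, GCNT1 overexpression over control, of the genes of each list with a row (points; bars at the list's median; dotted lines at the fold thresholds) beside a box plot of all 12703 genes. Connexin partners lie mostly between the thresholds with CCN3 lowest, while P2RY2 and P2RX5 are the genes called higher.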

How the data were processed

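RNA of 3 control and 3 GCNT1 overexpression PC3 lines was sequenced as single reads of 75 bases from stranded libraries. Per the study's methods, reads were trimmed with Cutadapt, aligned to hg38 by HISAT2 and assigned to genes by featureCounts. The authors deposited raw counts per gene and library. The gene annotation, the strand setting and the filter on low counts are not given in the sources used here; every gene had at least 1.01 CPM in its third-highest library.

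Counts were tested in R 4.3.3 with edgeR 4.0.16 (TMM, filterByExpr, which kept all 12703 genes, and the quasi-likelihood F test) with Benjamini-Hochberg adjustment over 12703 genes. Symbols came from a RefSeq table by Entrez identifier, and 12661 genes matched. Libraries of a group differed by more than sampling noise (chi-square per degree of freedom from 1.65 to 5.61), so each was counted as 1 sample. Alternatives were limma-voom (limma 3.58.1), DESeq2 1.42.0, no filter, at least 10 counts in every library, RLE factors, library size alone, glmTreat, a replicate block and each library left out in turn.

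All 6 listed genes were named, with any other connexin or pannexin found. From each list, every called gene and the 2 uncalled genes with the highest mean CPM were named, with the 3 most similar profiles (prior count 2) and the nearest tested gene on each side of a member. Some genes that these rules name are not reported here. The members and lists were chosen with earlier results of these data known. Gene positions, exon lengths and overlaps came from GENCODE 44 (hg38), and similar sequences were sought with BLAST 2.17.0 and Python 3.11.15.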

Additional observations from a re-analysis of the deposited data

How the results depend on the processing

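The tool, scaling, filter, test and libraries were varied over 14 alternatives for GJA1, PANX1, GJB2, GJC1 and PANX2. GJA1 and PANX1 were called in all 14, with log2 fold changes from -1.76 to -1.63 and from -0.93 to -0.85. GJB2 was called in 11 of 14 and PANX2 in none. In all, 198 of 209 alternative values kept their direction and side of the threshold, or for counts stayed within 1.5 times. With glmTreat, which tests against the fold threshold, 1392 genes were called, and GJB2 (-0.70, adjusted p = 0.658, range over alternatives 0.00505 to 0.658) and GCNT1 (0.98, adjusted p = 0.396, range 0.0110 to 0.396) were no longer called after Benjamini-Hochberg adjustment; this test asks for more by construction. GCNT1 also lost its call in DESeq2 (0.98, adjusted p = 0.0821 with Benjamini-Hochberg adjustment), and the cause was not tested. With each library left out in turn, log2 fold changes ran from -0.79 to -0.52 for GJB2 and from 0.49 to 1.21 for GCNT1, and from 2 to 5 connexin partner genes called. GCNT1 had no value with at least 10 counts in every library. Over all genes, 1405 were called lower and 1052 higher with TMM scaling, against 1230 lower and 1283 higher with library size alone. A block for the replicate number gave 2423 called genes, and no call of a member was changed. Same-numbered libraries did not deviate together (mean correlation -0.13, and 0 of 6 libraries correlated best with their own number). With 3 libraries a group, each centred on its group mean, these correlations cannot decide whether the numbers mark a shared culture or day. Depth limits GJB2, GJA5 and GCNT1, which had low counts in every library.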

Other observations

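Among the 50 tested genes nearest to each member called lower, those with the lowest and the highest log2 fold change are named here by that order, chosen after their values were seen. The called genes were 7 lower and 3 higher of 50 around GJA1, 9 and 2 around PANX1, and 4 and 4 around GJB2, where 11.1% of all genes were called lower and 8.28% higher. Around GJA1 the lowest was FAM184A, with 42, 21 and 34 counts in control and 1, 4 and 5 counts with overexpression. The highest was CCN2, a secreted matrix protein related to CCN3, with 1554, 1462 and 1528 counts in control and 4009, 5005 and 3930 counts with overexpression. Around PANX1 the lowest was HEPHL1, given above, and the highest was BIRC3, an inhibitor of apoptosis, with 118, 89 and 105 counts in control and 197, 308 and 203 counts with overexpression. Around GJB2 the lowest was SHISA2, with 102, 110 and 106 counts in control and 0 counts in each overexpression library. The highest was FLT1, a receptor for vascular growth factors, with 31, 36 and 30 counts in control and 1382, 1723 and 1679 counts with overexpression. For each of these genes the control and overexpression libraries did not overlap. Their part in the differences of the members was not tested.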
